A study of Mus musculus with 8 samples.

Results

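Bone marrow-derived macrophages of the mouse, phagocytes grown in culture from marrow cells, were compared after 6 h with interferon gamma (IFN-gamma) and lipopolysaccharide (LPS) and after 6 h with the interleukins IL-4 and IL-13. The comparison used 4 of the 8 arrays of the series, 2 for each treatment, and set the mean log2 signal of the IFN-gamma/LPS arrays against that of the IL-4/IL-13 arrays. It covered every probe set that carried exactly 1 gene symbol, with the brightest probe set standing for a gene that had several, which gave 19938 genes from 35556 probe sets. The other 4 arrays were 2 of untreated cells at 6 h and 2 of cells given LPS with both interleukins, and they entered the fit, the choice of the brightest probe set and, for untreated cells, the levels given beside the treatments. Both treatments were mixtures, and no sample received IFN-gamma, LPS, IL-4 or IL-13 alone, so a difference between the 2 treatments compared cannot be given to 1 agent. The LPS/IL-4/IL-13 arrays differ from the IL-4/IL-13 arrays by LPS, but that comparison was not made here. The doses, the mouse strain and the growth factor used to derive the cells were not stated in the sources used here. Whether the 2 arrays of a treatment stand for different cultures or mice was not stated either. The p-values therefore reflect the spread between the deposited arrays, which may be purely technical.

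IFN-gamma signals through a receptor coupled to JAK kinases, and LPS signals through Toll-like receptor 4 to NF-kB and, by way of type I interferon, to STAT and IRF factors. The outcome is known as classical activation, a state of microbial killing and inflammation marked by nitric oxide, IL-12 and CXC chemokines. IL-4 and IL-13 share a receptor chain that activates STAT6, and the outcome, alternative activation, is marked by arginase, the mannose receptor and secreted proteins such as RELM-alpha, and is known from parasite infection, allergy and tissue repair.

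The 8 arrays had medians between 6.12 and 6.20 on the log2 scale and values from 1.46 to 13.71. The arrays of a pair differed by a median of 0.11 under IFN-gamma/LPS and also of 0.11 under IL-4/IL-13. A difference is given below as the log2 difference, IFN-gamma/LPS minus IL-4/IL-13, with the standard error that limma gave (± SE, 2 arrays for each treatment), so that positive values mean a higher signal under IFN-gamma/LPS. A gene was called where the Benjamini-Hochberg adjusted p of limma was under 0.05. Macrophage genes gave a weak check of the labelled cell type. All 14 measured of 15 listed, among them the CSF-1 receptor gene Csf1r and the lysozyme gene Lyz2, lay above the median of all genes in untreated cells. So did all 23 respiratory chain and ATP synthase genes, 6 of 11 fibroblast and stromal markers and 1 of 10 T and NK cell markers. A level above that median therefore cannot establish the cell type. The arrays measured bulk RNA, in which fewer cells of a type and less RNA per cell cannot be told apart.

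The treatments left very different transcriptomes. Of the 19938 genes, 8302 or 41.6% were called, 3097 higher under IFN-gamma/LPS (15.5%) and 5205 lower (26.1%). Genes on the IFN-gamma/LPS side differed by more. At least 2-fold differences were found for 1260 higher and 1767 lower genes (6.32% and 8.86% of all), at least 4-fold for 530 and 303 (2.66% and 1.52%, together 833 or 4.18%), at least 8-fold for 225 and 73, and at least 16-fold for 94 and 8. The 2 groups did not overlap for 65.3% of all genes (29.8% with IFN-gamma/LPS above and 35.6% with it below), which includes 4727 of the 11636 genes that were not called, so a lack of overlap by itself is a weak criterion in a design of 2 against 2 arrays. Against untreated cells, 51.9% of genes were called under IFN-gamma/LPS (23.6% higher and 28.4% lower) and 20.2% under IL-4/IL-13 (7.83% and 12.3%). Those comparisons share the untreated arrays, whose values are given below beside both treatments. The median difference over all genes, IFN-gamma/LPS minus IL-4/IL-13, was -0.005, with an interquartile range from -0.35 to 0.18. Calls were unevenly spread over signal levels. Of the genes above the median of the mean signal, 24.3% were called higher and 45.3% lower, against 6.78% and 6.96% of the genes at or below it. Most lists described below consist of bright genes, so both shares are a guide for their counts.

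**Figure D1:**
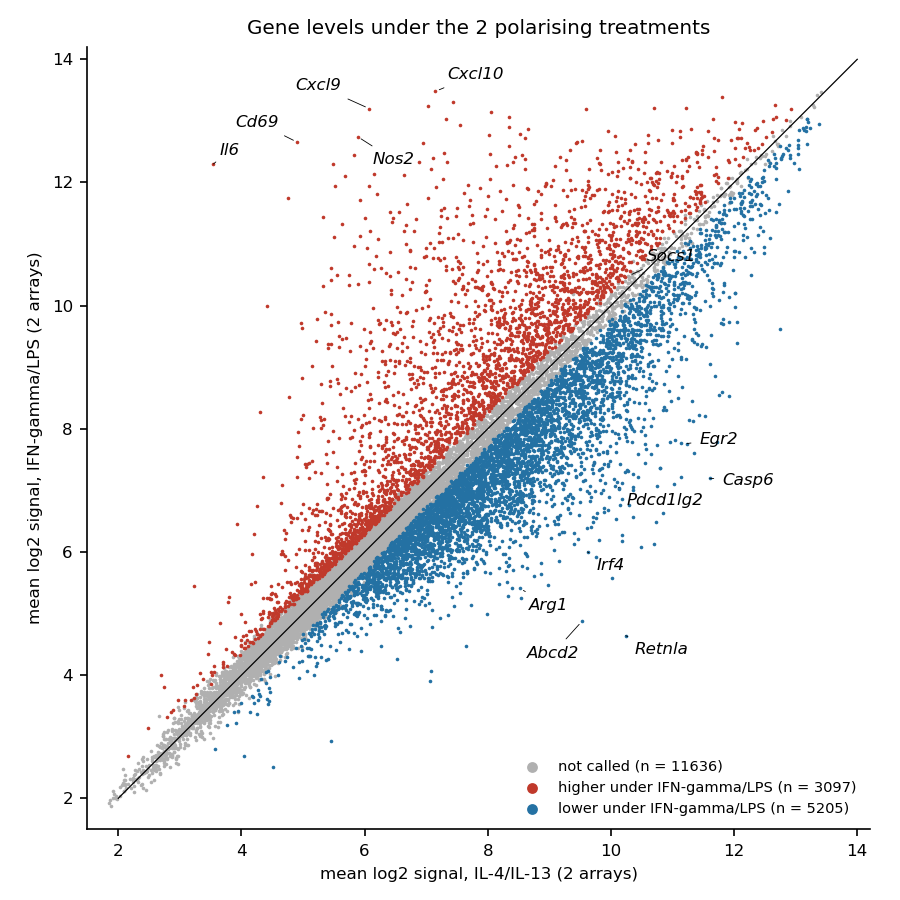
Mean log2 signal of each of 19938 genes under IL-4/IL-13 (horizontal axis, 2 arrays) and under IFN-gamma/LPS (vertical axis, 2 arrays), with called genes in red (3097, higher under IFN-gamma/LPS) and blue (5205, lower) and the line of equal levels in black. Red points reach farther from the line than blue ones, Il6 by 8.76 and Retnla by -5.60 on the log2 scale.

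Il6, the gene of a pyrogenic cytokine that drives the acute phase response, differed most. Its signal was 12.30 and 12.30 on the IFN-gamma/LPS arrays and 3.52 and 3.57 on the IL-4/IL-13 arrays, beside 3.41 and 3.40 in untreated cells, a log2 difference of 8.76 ± 0.14 or 432-fold (adjusted p = 1.11e-12). Both IL-4/IL-13 arrays thus stood near the untreated ones and far from the IFN-gamma/LPS pair. The sequence before the transcription start of Il6 (RefSeq, GRCm38.p6, chr5:30012864-30013113, plus strand) is shown because it holds a site of the NF-kB type. Capitals mark the motif, spelled GGG, then any 2 bases, then TTTCC, searched on both strands, here 44 bases before the start.
Il6: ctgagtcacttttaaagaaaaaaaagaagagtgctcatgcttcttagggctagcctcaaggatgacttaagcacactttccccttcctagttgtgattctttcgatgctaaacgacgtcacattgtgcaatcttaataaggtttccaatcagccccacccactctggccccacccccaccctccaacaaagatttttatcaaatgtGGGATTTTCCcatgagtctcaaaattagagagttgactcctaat
A window from 250 bases before to 50 bases after the start was given for 15614 of the named genes, and these letters occur in 1.83% of them. They occur in 18 (4.42%) of the 407 such genes at least 4-fold higher under IFN-gamma/LPS and in 5 (2.02%) of the 248 at least 4-fold higher under IL-4/IL-13. A match describes the letters and is no evidence of binding.

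Cd69, an early activation antigen of leukocytes, had signals of 12.65 and 12.66 under IFN-gamma/LPS and 4.82 and 4.99 under IL-4/IL-13, a difference of 7.75 ± 0.10 (215-fold, adjusted p = 8.90e-13). The IL-4/IL-13 arrays also lay below the untreated ones, at 5.50 and 5.71. The alarmin gene Il1a had 11.75 and 11.76 against 5.06 and 4.45 (difference 7.0 ± 0.15, 128-fold). Nos2, which encodes the inducible nitric oxide synthase, had 12.76 and 12.73 against 5.76 and 6.01 (difference 6.86 ± 0.10, 116-fold), and its IL-4/IL-13 values were close to the untreated 5.73 and 5.60. Il12b, the gene of the subunit shared by IL-12 and IL-23, had 12.29 and 12.31 against 5.55 and 5.41 (difference 6.82 ± 0.10, 113-fold). In each of these genes the treatments were several log2 units apart, far more than the arrays of a pair, of which the IL-4/IL-13 arrays of Il1a differed most. Clec4e, which encodes the mycobacterial glycolipid receptor Mincle, had 12.12 and 12.08 against 5.90 and 5.45 (difference 6.43 ± 0.13), and untreated cells lay between them at 7.54 and 7.67. The uridine-cleaving enzyme gene Upp1 differed by 6.42 ± 0.19, Acod1, whose product makes itaconate, by 6.20 ± 0.14, and the leukocyte receptor gene Slamf1 by 6.13 ± 0.12. Ptgs2, the inducible cyclooxygenase gene, differed by 5.87 ± 0.09, the gene of the death ligand TRAIL, Tnfsf10, by 5.70 ± 0.10, and Ifi205, a member of the interferon-inducible HIN-200 family, by 5.72 ± 0.16. In the list of classical activation effectors, 18 of 19 measured genes were higher and 0 lower in limma, also at an unadjusted p under 0.05, with a median of 3.91. The acute phase gene Saa3 (5.21 ± 0.13), the plasminogen activator inhibitor gene Serpinb2 (5.12 ± 0.12), and Gch1 (3.43 ± 0.12), whose product supplies the cofactor of nitric oxide synthase, were among them, and the haptoglobin gene Hp had a difference of 0.29 ± 0.14 (adjusted p = 0.129).

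**Figure D2:**
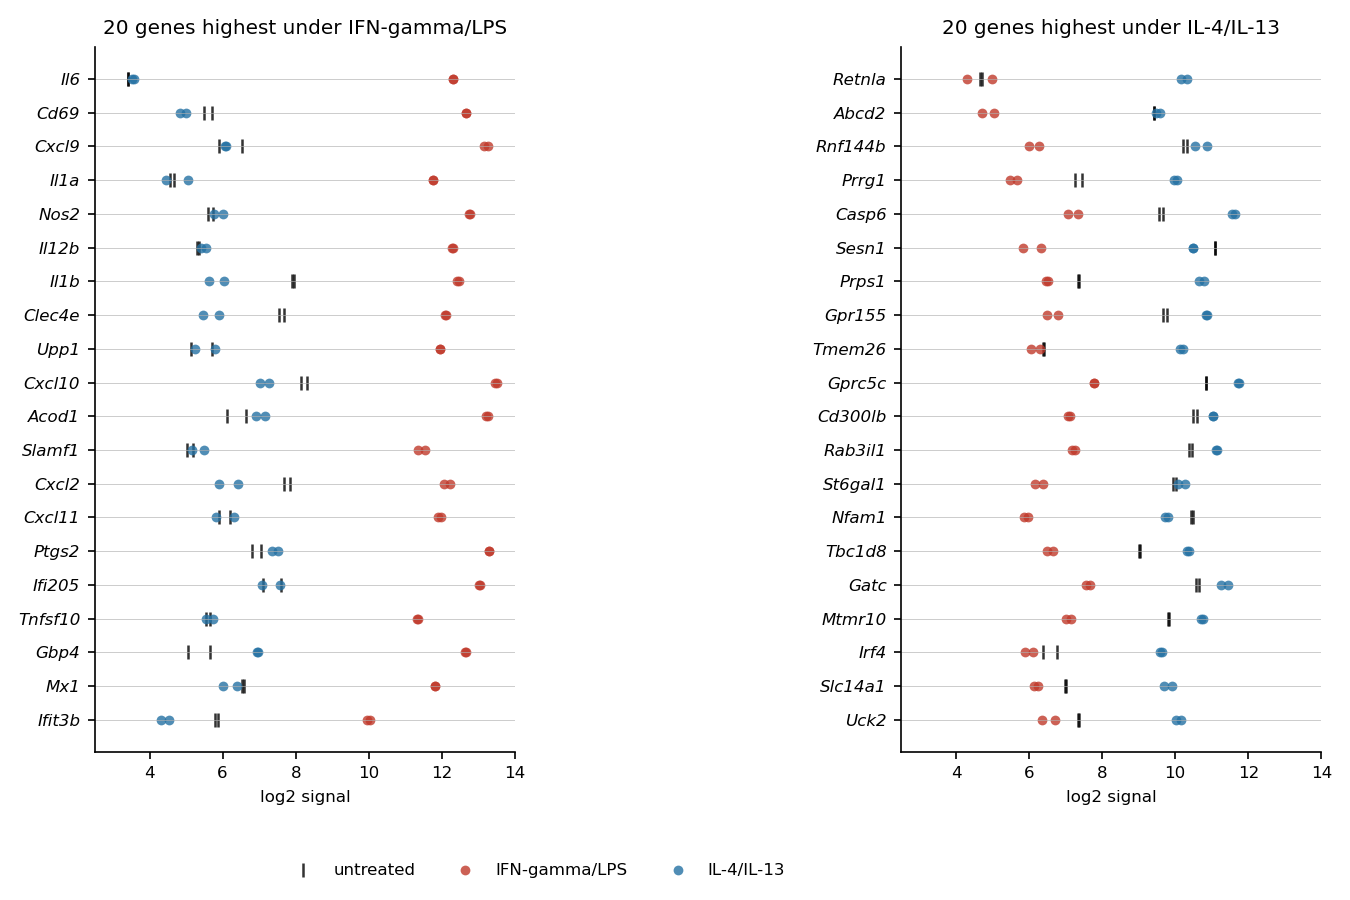
Log2 signal on each array for the 20 named genes with the largest differences in each direction, IFN-gamma/LPS arrays in red, IL-4/IL-13 arrays in blue and untreated arrays as black ticks. For genes such as Il6 and Nos2 the blue points sit at the untreated ticks, whereas for Abcd2 and St6gal1 on the right it is the red points that stand away from them.

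Retnla, which encodes RELM-alpha, a secreted protein of alternatively activated macrophages, differed most in the other direction. It had 4.99 and 4.29 under IFN-gamma/LPS and 10.15 and 10.33 under IL-4/IL-13, a difference of -5.60 ± 0.19 (48.5-fold higher under IL-4/IL-13, adjusted p = 1.74e-10). The IFN-gamma/LPS arrays were on either side of the untreated values of 4.67 and 4.70. Tmem26, a transmembrane protein gene, had 6.31 and 6.06 against 10.13 and 10.22 (-3.99 ± 0.10), and untreated cells at 6.39 and 6.40 lay at the level of the IFN-gamma/LPS pair. Irf4, the gene of a transcription factor required for alternative activation, had 6.11 and 5.89 against 9.65 and 9.59 (-3.62 ± 0.15), beside 6.76 and 6.37 in untreated cells. For Retnla and Tmem26 it was the IL-4/IL-13 pair that stood apart from untreated cells. For Irf4 the IL-4/IL-13 pair lay far above them and the IFN-gamma/LPS pair a little below (adjusted p = 0.00652 in limma).

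Other genes among the 20 that were lowest under IFN-gamma/LPS had IFN-gamma/LPS arrays far below the untreated ones and IL-4/IL-13 arrays much nearer to them. Abcd2, a peroxisomal transporter gene for very long-chain fatty acids, had 5.03 and 4.72 under IFN-gamma/LPS, 9.58 and 9.48 under IL-4/IL-13 and 9.43 and 9.43 in untreated cells (difference between the treatments -4.66 ± 0.12). The sialyltransferase gene St6gal1 had 6.17 and 6.37 against 10.07 and 10.28 (-3.91 ± 0.13), with 10.02 and 9.93 in untreated cells. Sesn1, a p53-inducible stress gene, had 5.84 and 6.33 against 10.49 and 10.48 (-4.40 ± 0.15), with 11.09 and 11.09 untreated. In these 3 genes the IFN-gamma/LPS pair stood far below the untreated and the IL-4/IL-13 arrays. For Sesn1 the IL-4/IL-13 pair was also below untreated cells (adjusted p = 0.016 in limma). Under the remaining pattern the treatments lay on opposite sides of untreated cells. Casp6, an effector caspase gene, had 7.06 and 7.33 under IFN-gamma/LPS, 9.57 and 9.66 untreated and 11.65 and 11.56 under IL-4/IL-13 (-4.41 ± 0.10). The phosphoribosyl pyrophosphate synthetase gene Prps1 had 6.45 and 6.53, 7.35 and 7.36 and 10.79 and 10.66 in the same order (-4.24 ± 0.11). The Gla-domain protein gene Prrg1 (-4.44 ± 0.11) and Gpr155 (-4.22 ± 0.13), whose product senses lysosomal cholesterol, had that order as well. Each of these sets of values uses the same untreated arrays for both treatments. Further genes of the 20 were the ubiquitin ligase gene Rnf144b (-4.57 ± 0.13), the orphan receptor gene Gprc5c (-3.94 ± 0.08), the activating receptor gene Cd300lb (-3.93 ± 0.08), the ITAM receptor gene Nfam1 (-3.83 ± 0.10), the urea transporter gene Slc14a1 (-3.61 ± 0.10) and the uridine-cytidine kinase gene Uck2 (-3.56 ± 0.13). Rab3il1, Tbc1d8, Gatc and Mtmr10 completed them, with differences from -3.91 to -3.67.

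Sites of the STAT6 type (TTC, then any 4 bases, then GAA), which read the same on both strands, lie before the start of Retnla (chr16:48842359-48842608, plus strand), Tmem26 (chr10:68723496-68723745, plus strand) and Pdcd1lg2 (chr19:29410669-29410918, plus strand), which encodes the checkpoint ligand PD-L2. The sequences are from RefSeq, GRCm38.p6, and have the matching letters in capitals. They are shown because these genes stood out under IL-4/IL-13 and also hold the motif. No match lay in the 250 bases before the starts of Irf4, Casp6, Prps1 and Uck2. Slamf1 and Ifi205, both far higher under IFN-gamma/LPS, held a match 148 and 231 bases before their starts.
Retnla: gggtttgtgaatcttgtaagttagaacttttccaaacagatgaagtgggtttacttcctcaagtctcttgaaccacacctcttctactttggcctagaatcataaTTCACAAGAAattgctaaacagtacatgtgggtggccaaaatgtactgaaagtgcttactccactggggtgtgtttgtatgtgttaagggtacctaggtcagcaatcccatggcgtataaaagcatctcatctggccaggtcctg
Tmem26: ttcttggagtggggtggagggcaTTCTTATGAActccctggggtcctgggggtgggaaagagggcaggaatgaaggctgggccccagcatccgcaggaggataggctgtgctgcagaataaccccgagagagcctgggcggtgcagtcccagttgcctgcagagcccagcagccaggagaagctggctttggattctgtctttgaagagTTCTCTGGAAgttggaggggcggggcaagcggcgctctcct
Pdcd1lg2: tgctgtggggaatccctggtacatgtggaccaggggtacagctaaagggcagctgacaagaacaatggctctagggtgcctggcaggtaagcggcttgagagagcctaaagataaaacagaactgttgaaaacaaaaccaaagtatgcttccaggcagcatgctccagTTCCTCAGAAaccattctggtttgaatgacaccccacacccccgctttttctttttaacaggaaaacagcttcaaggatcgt
The match lies 145 bases before the start in Retnla, 227 and 41 in Tmem26 and 82 in Pdcd1lg2. These letters were in the windows of 8 (38.1%) of the 21 alternative activation genes with a window, of 23 (9.27%) of the 248 genes at least 4-fold higher under IL-4/IL-13, of 39 (9.58%) of the 407 at least 4-fold higher under IFN-gamma/LPS and of 7.29% of all. The share in the genes higher under IL-4/IL-13 was thus about that in the genes higher under IFN-gamma/LPS. The related GAS type (TTC, then any 3 bases, then GAA) was in 5 (23.8%), 9.27%, 11.1% and 8.99% of the same 4 groups, so the alternative activation list was above all genes for both types.

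Of the 31 measured alternative activation genes of 34 listed, 18 were lower under IFN-gamma/LPS and 7 higher, with a median of -0.66. Pdcd1lg2 had 7.05 and 7.08 under IFN-gamma/LPS and 10.12 and 10 under IL-4/IL-13 (difference -3.0 ± 0.11), and both pairs lay above the untreated 4.70 and 4.98. Arg1, the arginase that competes with nitric oxide synthase for arginine, had 5.37 and 5.45 against 8.58 and 8.46 (-3.11 ± 0.12, 8.63-fold). Its IFN-gamma/LPS arrays were a little above the untreated 5.0 and 5.14. The mannose receptor gene Mrc1 had 10.90 and 11 against 12.47 and 12.50 (-1.54 ± 0.08), with 11.80 and 11.73 in untreated cells, so the pairs lay on opposite sides of the untreated arrays. Chil3, which encodes the chitinase-like protein Ym1, differed by -1.36 ± 0.17, and its IL-4/IL-13 arrays, at 6.68 and 6.14, differed from each other more than most genes did. The galactose-type lectin gene Clec10a (-3.22 ± 0.15) and its relative Mgl2 (-2.25 ± 0.14), the Ras activator gene Rasgrp1 (-3.20 ± 0.12), the VEGF receptor gene Flt1 (-1.94 ± 0.12) and the inhibitory receptor gene Cd200r1 (-1.72 ± 0.11) were also lower under IFN-gamma/LPS.

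Members called in the opposite direction numbered 7. Ccl22, a chemokine for regulatory and type 2 helper T cells, had 10.46 and 10.54 under IFN-gamma/LPS and 5.69 and 5.80 under IL-4/IL-13 (4.76 ± 0.10), and the IL-4/IL-13 arrays lay near the untreated 5.67 and 5.61. The IL-1 receptor antagonist gene Il1rn (4.23 ± 0.08), the 25-hydroxycholesterol-producing enzyme gene Ch25h (4.0 ± 0.09), the scavenger receptor gene Msr1 (2.99 ± 0.07) and the transglutaminase gene Tgm2 (2.24 ± 0.08) were higher as well. The eosinophil chemokine gene Ccl24 had 8.64 and 8.71 against 7.82 and 7.74 (0.90 ± 0.11), with 5.76 and 5.54 untreated. Slc7a2, which imports arginine for nitric oxide synthase and arginase alike, had 11.40 and 11.40 against 10.58 and 10.52 (0.85 ± 0.08), with 6.28 and 6.14 untreated. For Ccl24 and Slc7a2 both treatments lay far above untreated cells and the difference between them was small by comparison. Ccl17, a T cell chemokine, had 6.70 and 6.80 against 6.77 and 6.88, a difference of -0.08 ± 0.17 (adjusted p = 0.789) with a 95% interval from -0.45 to 0.30. Alox15, a lipoxygenase gene, did not pass either (0.05 ± 0.14, adjusted p = 0.839).

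**Figure D3:**
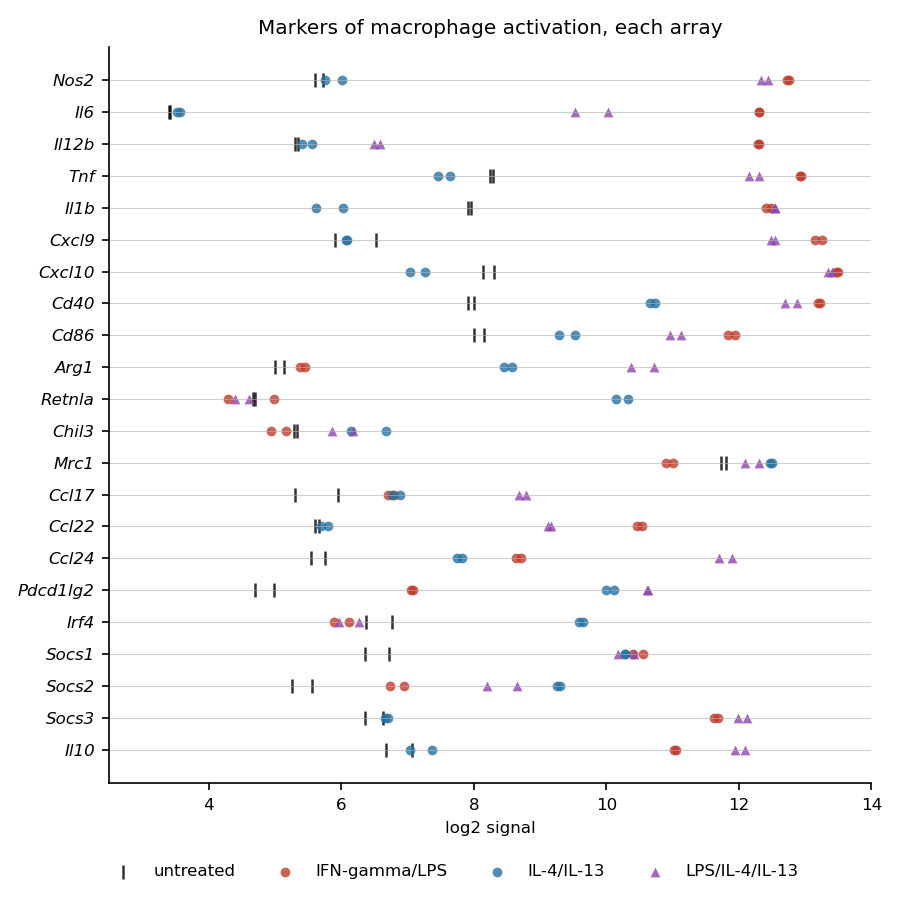
Log2 signal on each array for 22 markers of macrophage activation, with untreated arrays as black ticks, IFN-gamma/LPS in red, IL-4/IL-13 in blue and LPS/IL-4/IL-13 as purple triangles. Red and blue points coincide for Ccl17 and Socs1, are widest apart for Il6, and lie in the reverse order for Arg1, Retnla, Chil3, Mrc1, Pdcd1lg2, Irf4 and Socs2.

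Inflammatory cytokine genes were higher under IFN-gamma/LPS in 20 of 22 measured, and 0 were lower in limma, also at an unadjusted p under 0.05, with a median of 3.54. Tnf, a central inflammatory cytokine, had 12.94 and 12.93 against 7.64 and 7.46 (5.39 ± 0.08, 41.8-fold). Il1b had 12.41 and 12.48 against 5.62 and 6.03 (6.62 ± 0.11, 98.4-fold). The IL-4/IL-13 arrays lay below untreated cells for both, which had 8.25 and 8.29 for Tnf and 7.96 and 7.91 for Il1b. Il27 (5.15 ± 0.12), Il18 (4.22 ± 0.11), Il33 (3.74 ± 0.12), Il15 (3.24 ± 0.08) and Il12a (2.69 ± 0.12) were higher, and so was the gene of the anti-inflammatory cytokine IL-10. Il10 had 11.02 and 11.05 against 7.37 and 7.04 (3.83 ± 0.14). The interferon beta gene Ifnb1 had a smaller difference of 1.09 ± 0.12. Csf3 (0.35 ± 0.14, adjusted p = 0.075) and Il23a (0.22 ± 0.13, adjusted p = 0.206) did not pass.

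CXC chemokine genes were higher in 9 of 13 and lower in 1 (2 without IFN-gamma/LPS array 1), with a median of 0.39, and 4 of them stood far above the rest. Among the higher ones, Cxcl5 (0.36), Cxcl13 (0.39) and Cxcl14 (0.36) were not firm. They lost the call in a limma fit over all probe sets (adjusted p = 0.0666, 0.0941 and 0.097). The T cell attractants Cxcl9, Cxcl10 and Cxcl11 share the receptor CXCR3. Cxcl9 had 13.25 and 13.15 against 6.07 and 6.08 (7.13 ± 0.15, 140-fold), Cxcl10 had 13.50 and 13.46 against 7.03 and 7.27 (6.33 ± 0.09), and Cxcl11 differed by 5.87 ± 0.14. The neutrophil attractant gene Cxcl2 had 12.21 and 12.05 against 6.41 and 5.91 (5.97 ± 0.15). Untreated cells lay between the treatments for Cxcl10 (8.30 and 8.14) and Cxcl2 (7.83 and 7.68). The transmembrane chemokine gene Cxcl16 (1.43 ± 0.07) and Cxcl1 (1.30 ± 0.11) followed, the platelet factor gene Pf4 was lower (-0.49 ± 0.11), and Cxcl12 had -0.03 ± 0.10 (adjusted p = 0.892). Of 16 CC chemokine genes 9 were higher and 1 lower, with a median of 0.93. The monocyte attractant gene Ccl12 (4.97 ± 0.16), the macrophage inflammatory protein genes Ccl4 (4.09 ± 0.09) and Ccl3 (2.0 ± 0.05), the T cell attractant gene Ccl5 (3.61 ± 0.06) and Ccl8 (2.52 ± 0.14) were higher. The monocyte attractants Ccl2 and Ccl7 differed less. Ccl7 had 11.98 and 12.05 against 11.02 and 11.09 (0.96 ± 0.08), and both pairs were well above the untreated 6.83 and 7.01. Ccl6 was lower (-1.22 ± 0.07).

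The sequences before the starts of Cxcl2 (chr5:90903649-90903898, plus strand) and Cxcl10 (chr5:92348890-92349139, minus strand) are shown for the motifs marked in them. The first holds the NF-kB type letters 97 and 78 bases before the start. The second holds, 213 bases before it, the core of the interferon-stimulated response element (ISRE), spelled GAAA, then any 2 bases, then GAAA, to which IRF and STAT complexes bind. Both strands were searched, the sequences are from RefSeq, GRCm38.p6, and capitals mark the matches. Other spellings of NF-kB sites were not searched, so Cxcl10 is not shown to lack such a site.
Cxcl2: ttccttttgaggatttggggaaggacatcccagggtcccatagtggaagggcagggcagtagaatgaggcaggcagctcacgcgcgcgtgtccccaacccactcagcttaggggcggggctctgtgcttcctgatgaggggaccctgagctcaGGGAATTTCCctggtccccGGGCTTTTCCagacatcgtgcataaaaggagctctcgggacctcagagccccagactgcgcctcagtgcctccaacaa
Cxcl10: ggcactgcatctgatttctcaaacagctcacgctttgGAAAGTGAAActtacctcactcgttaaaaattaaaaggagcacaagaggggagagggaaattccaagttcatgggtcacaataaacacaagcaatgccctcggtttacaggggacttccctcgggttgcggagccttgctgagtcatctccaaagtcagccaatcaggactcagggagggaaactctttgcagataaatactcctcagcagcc
A kB-type match was also present in the window of Cd300lb, which was lower under IFN-gamma/LPS.

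Antiviral genes of the interferon response were higher under IFN-gamma/LPS in all 28 measured of 31 listed, with a median of 2.74. Mx1, a dynamin-like GTPase gene that blocks influenza viruses, had 11.82 and 11.82 against 6.39 and 6.0 (5.63 ± 0.11), and untreated cells had 6.59 and 6.52. Ifit3b, a member of the family of interferon-induced proteins that bind foreign RNA, had 10.02 and 9.96 against 4.52 and 4.32 (5.57 ± 0.15), and its IL-4/IL-13 arrays lay below the untreated 5.80 and 5.87. Mx2 (5.0 ± 0.15), the oligoadenylate synthetase-like gene Oasl1 (4.75 ± 0.08), the viperin gene Rsad2 (4.72 ± 0.10), Ifit2 (4.57 ± 0.10) and the ISG15-removing protease gene Usp18 (4.24 ± 0.11) followed. The RNA sensor gene Ifih1 differed by 3.15 ± 0.07, and Ifitm3, whose product restricts viral entry, by only 0.40 ± 0.06. Guanylate-binding proteins and immunity-related GTPases, which attack pathogen vacuoles, were higher in all 9 measured of 18 listed, with a median of 3.24. Gbp4 had 12.62 and 12.65 against 6.95 and 6.96 (5.68 ± 0.15), with 5.04 and 5.66 in untreated cells, so it was above untreated under both treatments. Gbp5 (4.43 ± 0.09), Iigp1 (4.13 ± 0.12) and Irgm1 (2.71 ± 0.07) were other members.

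The sequence before Ifit3b (chr19:34607707-34607956, plus strand, RefSeq, GRCm38.p6) holds the ISRE core, read on the other strand as TTTC, any 2 bases and again TTTC, at 188 and 154 bases before the start, in capitals, and is shown for its pair of sites.
Ifit3b: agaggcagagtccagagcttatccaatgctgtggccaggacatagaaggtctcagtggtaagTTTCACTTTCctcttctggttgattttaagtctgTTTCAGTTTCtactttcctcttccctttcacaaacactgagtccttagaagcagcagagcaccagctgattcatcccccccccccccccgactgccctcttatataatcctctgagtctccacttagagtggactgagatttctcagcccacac
The ISRE core was in the windows of 11 (55.0%) of the 20 antiviral genes with a window, of all 4 GTPases with one, of 57 (14%) of the 407 genes at least 4-fold higher under IFN-gamma/LPS, of 7 (2.82%) of the 248 at least 4-fold higher under IL-4/IL-13 and of 3.89% of all. Of the motifs searched it had the widest gap between the groups. The antiviral genes make up part of the 407.

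Genes of the signalling pathways themselves differed too. Of 17 NF-kB and IkB proteins and their editors, 16 were higher under IFN-gamma/LPS and 0 lower in limma, also at an unadjusted p under 0.05, with a median of 1.87. They included the adaptor gene Traf1 (4.92 ± 0.10), the atypical IkB gene Nfkbiz (4.71 ± 0.08), which promotes secondary response genes such as Il6, and the inhibitors Nfkbie (3.95 ± 0.10), Nfkbia (2.52 ± 0.07) and Tnfaip3 (3.92 ± 0.09). The subunit genes Rel and Rela differed by less, 0.94 ± 0.06 and 0.98 ± 0.08. Of 9 measured STAT and JAK genes 8 were higher, with Stat4 at 3.88 ± 0.12, Jak2 at 2.35 ± 0.10 and Stat3 at 2.15 ± 0.07. Stat6, which carries the IL-4 and IL-13 signal, was the 1 member lower, with 9.77 and 9.79 against 10.25 and 10.20 (-0.45 ± 0.07), both below the untreated 10.58 and 10.50. Of 8 IRF genes 6 were higher, led by Irf1 (2.0 ± 0.08), Irf8 (1.58 ± 0.06) and Irf7 (1.16 ± 0.08), and Irf3 (-0.70 ± 0.10) and Irf4 were lower.

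SOCS genes, feedback inhibitors of cytokine receptors, split into 3 higher, 3 lower and 2 that did not pass. Socs3, the inhibitor of IL-6 family receptors, had 11.62 and 11.68 against 6.71 and 6.66 (4.97 ± 0.10), the latter at the untreated level of 6.35 and 6.63. Socs2 had 6.74 and 6.94 against 9.30 and 9.26 (-2.44 ± 0.15), with 5.56 and 5.26 untreated. Socs1, the inhibitor of interferon and IL-4 receptors, had 10.40 and 10.56 against 10.28 and 10.28, far above the untreated 6.72 and 6.36 in both. The difference between the treatments was 0.20 ± 0.12 (adjusted p = 0.239), with a 95% interval from -0.07 to 0.47. Cish, the STAT5-induced member, was also above the untreated 5.50 and 5.44 under both, at 9.26 and 9.16 and 8.81 and 8.86, with a difference of 0.38 ± 0.09 that passed the test. The sequence before Socs1 (chr16:10785537-10785786, minus strand, RefSeq, GRCm38.p6) is shown because its ISRE cores, at 83 and 77 bases before the start, overlap in 1 run of capitals.
Socs1: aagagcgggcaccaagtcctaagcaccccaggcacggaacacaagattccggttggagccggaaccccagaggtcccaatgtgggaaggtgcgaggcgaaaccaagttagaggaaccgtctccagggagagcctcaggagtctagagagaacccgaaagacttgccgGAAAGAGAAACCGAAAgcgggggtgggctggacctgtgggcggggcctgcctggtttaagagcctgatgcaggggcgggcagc

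Transcription factors and coactivators tied to IL-4 were lower under IFN-gamma/LPS in 12 of 18 and higher in 6, with a median of -0.96. Egr2, an early growth response factor, had 7.70 and 7.82 against 11.24 and 11.23 (-3.48 ± 0.09), with untreated cells at 8.42 and 8.57. The myeloid factor gene Cebpa had 6.27 and 6.36 against 9.39 and 9.42 (-3.09 ± 0.11), with 8.89 and 8.59 untreated. The lipid-sensing receptor gene Pparg had 9.16 and 9.17 against 11.16 and 11.10 (-1.97 ± 0.07), where the IL-4/IL-13 arrays were at the untreated 11.05 and 10.92. So Egr2 and Cebpa lay on both sides of untreated cells and Pparg only below. The retinoid receptor genes Rara (-2.20 ± 0.09) and Rxra (-1.85 ± 0.13), Myc (-1.74 ± 0.11), Klf4 (-1.49 ± 0.12), the mitochondrial coactivator gene Ppargc1b (-1.24 ± 0.11) and Batf3 (-1.12 ± 0.10) were lower. Cebpb (1.83 ± 0.10), Bcl6 (1.67 ± 0.07) and Maf (0.92 ± 0.06) were among the higher ones.

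Receptors for the cytokines used were themselves on both sides. Il13ra1, a subunit of the receptor for IL-13 and IL-4, had 10.69 and 10.66 under IFN-gamma/LPS and 6.08 and 6.07 under IL-4/IL-13 (4.60 ± 0.10, 24.3-fold), with 7.58 and 7.43 untreated. Il4ra was higher as well, with 11.93 and 11.91 against 10.71 and 10.80 (1.17 ± 0.06). Ifngr1, the ligand-binding chain of the IFN-gamma receptor, was lower, with 10.12 and 10.04 against 11.62 and 11.44 (-1.45 ± 0.07) and 12.03 and 12.05 untreated. Thus the receptor genes Il13ra1 and Ifngr1 were each lower under the treatment that held their own ligand. Il6ra had 7.63 and 7.73 against 10.58 and 10.57 (-2.90 ± 0.10) with 10.60 and 10.52 untreated, and its signalling partner Il6st was also lower (-1.69 ± 0.08). Il15ra (3.95 ± 0.10), the IL-2 receptor alpha gene Il2ra (3.84 ± 0.12) and Il17ra (2.71 ± 0.09) were higher, and Csf1r (-1.03 ± 0.05) and Il10rb (-1.13 ± 0.07) lower. In total, 12 of 27 cytokine receptors were higher and 9 lower, with a median of 0.10, and the interferon receptor genes Ifnar1 (-0.06 ± 0.07, adjusted p = 0.621) and Ifnar2 (-0.07 ± 0.06, adjusted p = 0.4) did not pass.

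Pattern recognition genes were higher in 14 of 21 Toll-like receptors and adaptors and lower in 5, with a median of 0.46. The peptidoglycan sensors Nod1 (3.17 ± 0.09) and Nod2 (2.28 ± 0.13), the double-stranded RNA receptor Tlr3 (2.72 ± 0.08) and the kinase gene Irak2 (2.53 ± 0.08) led the higher ones. The LPS receptor gene Tlr4 was lower (-1.31 ± 0.10), with 8.80 and 8.68 against 10.10 and 9.99 and 9.60 and 9.67 in untreated cells, whereas its co-receptor gene Cd14 was higher (1.33 ± 0.08), with 11.31 and 11.19 against 9.93 and 9.91 and 11.34 and 11.34 untreated. For Cd14 it was the IL-4/IL-13 pair that stood away from untreated cells. Tlr13, a sensor of bacterial ribosomal RNA, had -1.91 ± 0.09 and Tlr8 -1.46 ± 0.06. Ticam1 (-0.03 ± 0.10, adjusted p = 0.859) did not pass.

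Chemoattractant receptor genes divided into 8 higher and 6 lower of 16 measured, with a median of 0.56. The chemerin-binding receptor gene Ccrl2 (5.45 ± 0.09), the ADP receptor gene P2ry13 (4.56 ± 0.09) and the lymph node homing receptor gene Ccr7 (2.81 ± 0.13) were higher. The monocyte receptor gene Ccr2 had 8.37 and 8.33 against 6.67 and 6.46 (1.79 ± 0.13), with 8.71 and 8.72 untreated. Cxcr4 (-2.73 ± 0.08), the chemerin receptor gene Cmklr1 (-1.57 ± 0.09) and the UDP receptor gene P2ry6 (-1.49 ± 0.06) were lower. Of 16 Fc receptor and complement genes 7 were higher and 5 lower (3 without IL-4/IL-13 array 2), with a median of 0.14. The activating Fc receptor genes Fcgr4 (2.42 ± 0.06) and Fcgr1 (1.77 ± 0.06) and the complement factor B gene Cfb (3.62 ± 0.10) were higher and the inhibitory receptor gene Fcgr2b lower (-1.24 ± 0.06), while Fcgr3 (0.01 ± 0.06, adjusted p = 0.927) and C1qb (-0.02 ± 0.05, adjusted p = 0.815) did not pass. Scavenger, lectin and engulfment receptors split into 9 higher and 11 lower of 22, with a median of -0.22. Above the median of the mean signal lay 14 of 16 chemoattractant receptor genes, 12 of 16 Fc receptor and complement genes and 17 of 22 of these receptors. Of all genes above it, 24.3% were called higher and 45.3% lower. The oxidised LDL receptor gene Olr1 (4.06 ± 0.10), the apoptotic cell receptor genes Mertk (2.11 ± 0.08) and Axl (1.37 ± 0.09) and Clec4d (1.77 ± 0.08) were higher. Their bridging ligand gene Gas6 (-1.11 ± 0.09), the HDL receptor gene Scarb1 (-1.51 ± 0.13), Stab1 (-1.28 ± 0.08) and the beta-glucan receptor gene Clec7a (-0.76 ± 0.07) were lower.

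Antigen presentation genes were counted for class I, which displays peptides made inside the cell, and for class II, which displays those of material taken up. Of 14 measured class I genes of 18 listed, 9 were higher and 3 lower, with a median of 0.75. The peptide transporter genes Tap1 (2.28 ± 0.07) and Tap2 (1.55 ± 0.15), the transactivator gene Nlrc5 (1.71 ± 0.10) and the proteasome activator gene Psme2 (1.14 ± 0.09) were higher, and the chaperone gene Calr (-0.86 ± 0.07), Erap1 (-0.55 ± 0.12) and the immunoproteasome subunit gene Psmb10 (-0.45 ± 0.08) lower. B2m (0.02 ± 0.05, adjusted p = 0.851) did not pass. Of 9 measured class II genes 0 were higher in limma, also at an unadjusted p under 0.05, and 6 were lower, with a median of -0.27 that lay inside the interquartile range of all genes. Ifi30, a thiol reductase of antigen processing, had 10.18 and 10.24 against 11.64 and 11.65 (-1.44 ± 0.07) and the peptide-editing subunit gene H2-DMa 8.37 and 8.72 against 9.86 and 9.90 (-1.34 ± 0.11). Those were the larger differences, and the calls of H2-Aa (-0.27 ± 0.09), H2-Eb1 (-0.34 ± 0.08) and the invariant chain gene Cd74 (-0.26 ± 0.06) were each lost in at least 1 alternative fit.

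Costimulatory and checkpoint ligands were higher in 10 of 16 and lower in 4, with a median of 2.16. Cd40, which receives T cell help, had 13.22 and 13.20 against 10.66 and 10.73 (2.52 ± 0.07), both above the untreated 8.0 and 7.91. Cd86, a ligand of CD28, had 11.94 and 11.84 against 9.53 and 9.29 (2.48 ± 0.10), also both above the untreated 8.15 and 8.01. Cd80, the other ligand of CD28, had 9.90 and 10.02 against 7.02 and 6.85 (3.03 ± 0.10), with untreated cells between them at 7.95 and 8.10. The PD-L1 gene Cd274 (2.25 ± 0.08) was higher and the PD-L2 gene Pdcd1lg2 lower, so the ligands of PD-1 went opposite ways. The OX40 ligand gene Tnfsf4 (4.66 ± 0.15), the 4-1BB ligand gene Tnfsf9 (4.55 ± 0.14) and Cd200 (4.22 ± 0.11) had the largest differences of the list, and Sirpa (-1.08 ± 0.05) was lower.

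**Figure D4:**
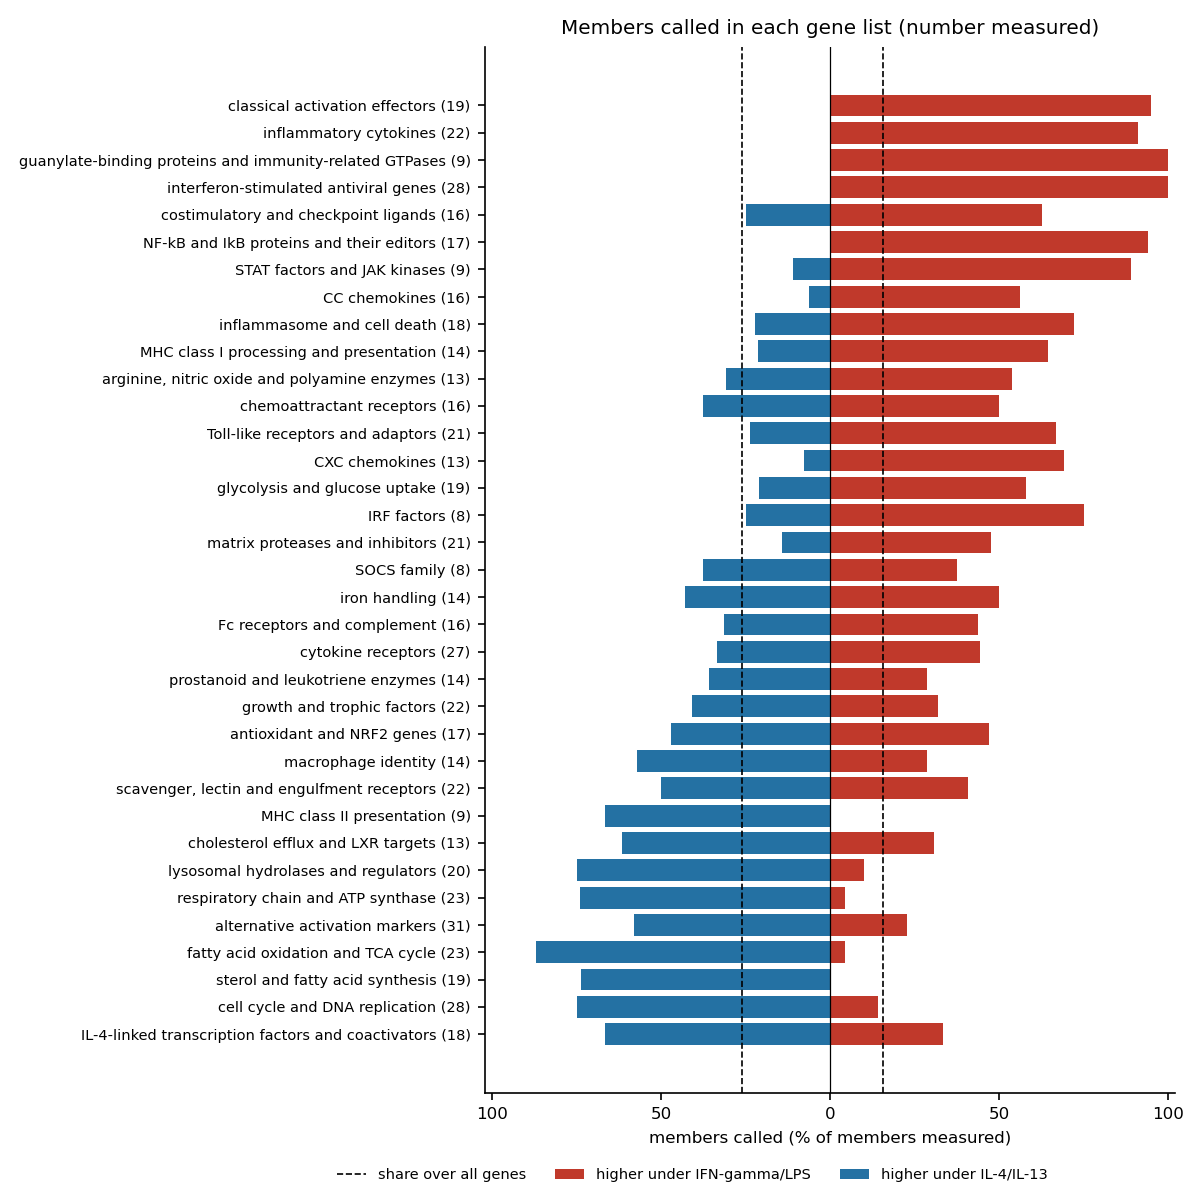
Share of the measured members of each gene list (number in brackets) that were called higher under IFN-gamma/LPS (red, to the right) or higher under IL-4/IL-13 (blue, to the left), with dashed lines at the shares over all genes, 15.5% and 26.1%. Lists of inflammatory and interferon genes at the top extend to the right, and lists of metabolic, cell cycle and IL-4-linked genes at the bottom extend to the left. Most list members lie above the median of the mean signal, where the shares over all genes were 24.3% and 45.3%, so the dashed lines are low for them.

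Arginine enzymes went both ways, with 7 of 13 higher and 4 lower. Beside Nos2 and Arg1, the mitochondrial arginase gene Arg2 was higher under IFN-gamma/LPS, with 8.83 and 8.40 against 5.96 and 5.60 (2.84 ± 0.16). Of the polyamine enzymes, the ornithine decarboxylase gene Odc1 was higher (2.30 ± 0.09), with 9.37 and 9.44 against 7.13 and 7.08, and the spermidine synthase gene Srm lower (-2.52 ± 0.09), with 7.52 and 7.42 against 10.01 and 9.96. The consecutive steps of that pathway thus differed in opposite directions. The median of the list was 0.64.

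Glycolysis and glucose uptake genes were higher in 11 of 19 and lower in 4, with a median of 0.38. The regulatory enzyme gene Pfkfb3 (2.97 ± 0.10), the phosphofructokinase gene Pfkp (2.55 ± 0.07), the hexokinase genes Hk3 (2.51 ± 0.08) and Hk2 (2.38 ± 0.14), and the transporter genes Slc2a1 (0.95 ± 0.08) and Slc2a6 (1.44 ± 0.07) were higher, as was Hif1a (1.30 ± 0.09), a regulator of the pathway. Pfkfb4 was lower, with 6.49 and 6.64 against 8.56 and 8.52 (-1.98 ± 0.10), so the related genes Pfkfb3 and Pfkfb4 were opposed. The lactate dehydrogenase gene Ldha had 11.76 and 11.82 against 11.82 and 11.77, a difference of -0.01 ± 0.06 (adjusted p = 0.965, 95% interval from -0.13 to 0.12), and Pgam1 had 0.02 ± 0.07 (adjusted p = 0.907). Hk1 was called lower (-0.31 ± 0.07) on its brighter probe set, and the other probe set was called higher, by 0.95, so its direction depends on the probe set.

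Fatty acid oxidation and TCA cycle genes were lower in 20 of 23 and higher in 1, with a median of -0.78. The fumarase gene Fh1 had 6.82 and 6.77 against 9.24 and 9.18 (-2.42 ± 0.10), with 8.96 and 8.86 untreated. The medium-chain acyl-CoA dehydrogenase gene Acadm had 7.29 and 7.23 against 9.46 and 9.52 (-2.23 ± 0.13), with 9.96 and 9.80 untreated. Etfdh (-1.40 ± 0.13), the rate-limiting carnitine transferase gene Cpt1a (-1.38 ± 0.08), Acaa2 (-1.34 ± 0.09) and the succinate dehydrogenase subunit gene Sdhb (-1.05 ± 0.10) were also lower, and Acadl was the member that was higher (0.99 ± 0.11). For Fh1 and Acadm the IFN-gamma/LPS arrays were the pair that lay far from untreated cells. Of 23 respiratory chain and ATP synthase genes 17 were lower and 1 higher, with a median of -0.53, the lower ones including Ndufb8 (-1.01 ± 0.14), Atp5c1 (-0.81 ± 0.08) and Cyc1 (-0.80 ± 0.13) and the higher one being the cytochrome c gene Cycs (0.36 ± 0.08). All 23 members of each list lay above the median of the mean signal, where 45.3% of all genes were called lower.

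Sterol and fatty acid synthesis genes were lower in 14 of 19, and 0 were higher in limma, also at an unadjusted p under 0.05, with a median of -0.80. Msmo1 (-1.88 ± 0.12), Dhcr7 (-1.67 ± 0.11) and Nsdhl (-1.38 ± 0.11) of sterol synthesis and Fasn (-1.48 ± 0.12) and Scd2 (-1.30 ± 0.12) of fatty acid synthesis led them, while Hmgcs1 (-0.09 ± 0.14, adjusted p = 0.69) and Scd1 (-0.16 ± 0.13, adjusted p = 0.388) did not pass. Cholesterol efflux and LXR target genes were lower in 8 of 13 and higher in 4, with a median of -0.38. The efflux transporter gene Abca1 had 7.91 and 7.95 against 10.05 and 10.08 (-2.14 ± 0.08) with 11.32 and 11.30 untreated, the lysosomal cholesterol exporter gene Npc1 had 9.41 and 9.36 against 11.51 and 11.44 (-2.09 ± 0.07), and Abcg1 had -0.80 ± 0.08. Ch25h and the LDL receptor ubiquitin ligase gene Mylip (1.49 ± 0.08) were higher. Abca1 lay below untreated cells under both treatments.

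**Figure D5:**
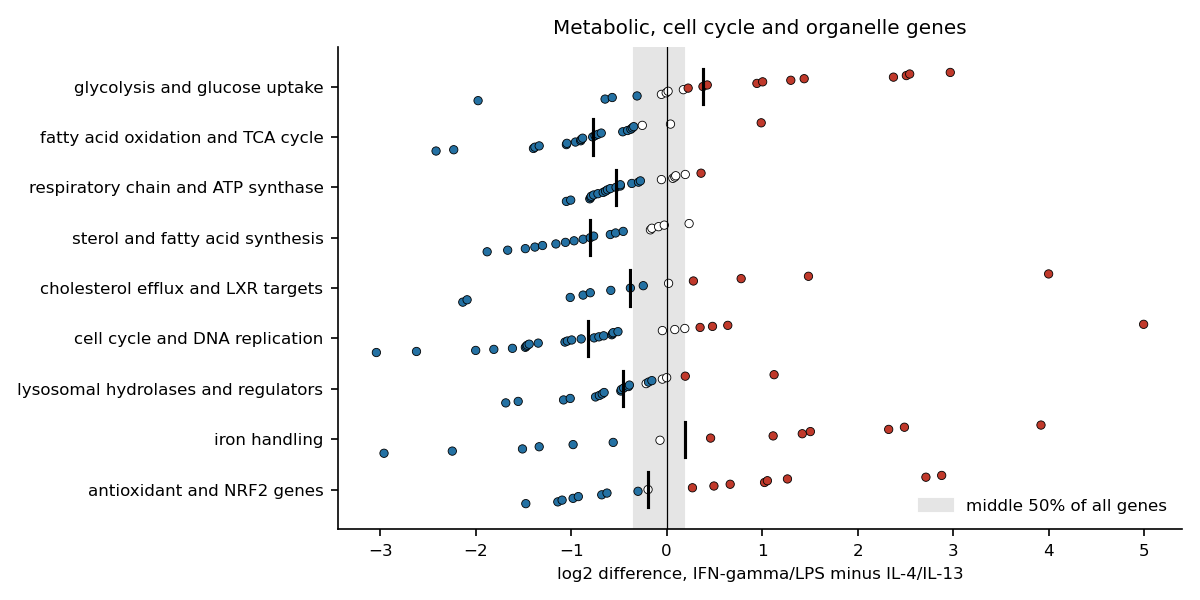
Log2 difference, IFN-gamma/LPS minus IL-4/IL-13, of each measured member of 9 lists, in red where called higher, blue where called lower and white where not called, with the list median as a black bar and the interquartile range of all genes (-0.35 to 0.18) shaded. The medians of fatty acid oxidation, respiratory chain, sterol, cholesterol efflux, cell cycle and lysosomal genes lie to the left of that band. Those of glycolysis and, by a little, iron genes lie to its right.

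Cell cycle and DNA replication genes were lower in 21 of 28 and higher in 4, with a median of -0.83. The cyclin gene Ccna2 had 5.90 and 5.74 against 9.04 and 8.68 (-3.04 ± 0.14), and the mitotic kinase gene Plk1 6.18 and 5.79 against 8.74 and 8.47 (-2.62 ± 0.15). The IL-4/IL-13 arrays stood near the untreated values of 8.80 and 8.97 for Ccna2 and 8.41 and 8.72 for Plk1. Aurkb (-2.0 ± 0.10), the replication factor gene E2f1 (-1.81 ± 0.12) and the ribonucleotide reductase subunit gene Rrm1 (-1.62 ± 0.12) were lower. The cyclin D2 gene Ccnd2 was a sharp exception, with 12.32 and 12.34 against 7.27 and 7.40 (5.0 ± 0.09, 31.9-fold), and untreated cells at 7.56 and 7.40. The proliferation marker Mki67 (0.19 ± 0.14, adjusted p = 0.33) and Pcna (0.09 ± 0.08, adjusted p = 0.469) did not pass. Of the list, 23 members lay above the median of the mean signal.

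Because Prps1 and Uck2 were among the 20 lowest genes, 3 lists of related functions were added after the values had been seen, and their counts are descriptions. Both genes are part of the nucleotide synthesis count. Of all genes above the median of the mean signal, 24.3% were called higher and 45.3% lower, and the members above it were not counted for these lists. Of 24 nucleotide synthesis genes 19 were lower under IFN-gamma/LPS and 1 higher, with a median of -0.85, and next to Prps1 and Uck2 the largest were those of the purine synthesis gene Atic (-1.73 ± 0.11), the CTP synthase gene Ctps2 (-1.46 ± 0.11) and the purine synthesis gene Gart (-1.37 ± 0.10). Uck2 had 6.36 and 6.70 against 10.16 and 10.01, with 7.38 and 7.33 untreated. Of 29 ribosome biogenesis genes 18 were lower and 2 higher, with a median of -0.50, among them Polr1b (-2.05 ± 0.11), Nop16 (-1.77 ± 0.10) and Dkc1 (-1.71 ± 0.13), while the nucleophosmin gene Npm1 (0.02 ± 0.13, adjusted p = 0.949) did not pass. Of 17 aminoacyl-tRNA synthetase genes 11 were lower and 5 higher, with a median of -0.53. Iars (-2.02 ± 0.11) was lowest, and Wars, the tryptophan enzyme gene inducible by IFN-gamma, was highest (1.57 ± 0.10).

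Lysosomal genes were lower in 15 of 20 and higher in 2 (1 without IL-4/IL-13 array 2), with a median of -0.46. Tfeb (-1.69 ± 0.10) and Tfe3 (-1.01 ± 0.09), the regulators of lysosome formation, and the hydrolase genes Gusb (-1.56 ± 0.08) and Hexa (-1.08 ± 0.08) were lower, and the galactosidase gene Gla was higher (1.13 ± 0.06). Iron genes split into 7 higher and 6 lower of 14, with a median of 0.20. The transferrin receptor gene Tfrc had 7.33 and 7.31 against 10.31 and 10.25 (-2.96 ± 0.12), and untreated cells lay between them at 9.08 and 8.96. The iron regulatory protein gene Aco1 was lower (-2.25 ± 0.09), and the metalloreductase gene Steap4 (3.92 ± 0.15), the siderophore-binding protein gene Lcn2 (2.49 ± 0.11) and the ceruloplasmin gene Cp (2.33 ± 0.10) higher. The iron exporter gene Slc40a1 had 5.60 and 5.54 against 6.95 and 6.86 (-1.34 ± 0.11), both far below the untreated 10.09 and 10.11. Of 17 antioxidant genes 8 were higher and 8 lower, with a median of -0.20. Above the median of the mean signal lay 19 of 20 lysosomal, 13 of 14 iron and 16 of 17 antioxidant genes. Of all genes above it, 24.3% were called higher and 45.3% lower. The mitochondrial dismutase gene Sod2 (2.88 ± 0.06) and the cystine transporter gene Slc7a11 (2.72 ± 0.13) were higher, and the glutathione peroxidase genes Gpx1 (-1.48 ± 0.09) and Gpx4 (-1.14 ± 0.09) and the catalase gene Cat (-1.10 ± 0.06) lower.

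Inflammasome and cell death genes were higher in 13 of 18 and lower in 4, with a median of 0.91. Nlrp3 had 11.62 and 11.62 against 7.76 and 7.63 (3.93 ± 0.09), with 8.72 and 8.88 untreated. The necroptosis effector gene Mlkl (3.78 ± 0.11), the LPS-sensing caspase gene Casp4 (3.66 ± 0.11), Fas (3.83 ± 0.10) and Casp1 (2.31 ± 0.11) were higher, and Nlrc4 (-0.92 ± 0.20), Nlrp1b (-0.84 ± 0.11) and the survival gene Bcl2 (-0.79 ± 0.10) lower. The inflammasome sensor genes therefore did not go 1 way. Of 14 prostanoid and leukotriene genes 4 were higher and 5 lower, with a median of 0.01. The prostaglandin E synthase gene Ptges (3.91 ± 0.14) and the phospholipase gene Pla2g4a (2.51 ± 0.12) joined Ptgs2, whereas the prostaglandin-degrading enzyme gene Hpgd (-2.84 ± 0.08), the thromboxane synthase gene Tbxas1 (-1.82 ± 0.07) and Lta4h (-1.66 ± 0.12), which makes leukotriene B4, were lower. Hpgd had 8.93 and 8.78 against 11.74 and 11.65, with 12 and 11.92 untreated.

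Matrix proteases and inhibitors were higher in 10 of 21 and lower in 3, with a median of 0.27. The collagenase gene Mmp13 had 13.19 and 13.10 against 8.20 and 7.89 (5.10 ± 0.09), with 7.50 and 7.50 untreated. Mmp25 (4.94 ± 0.16), Mmp14 (3.32 ± 0.10) and the inhibitor gene Timp1 (3.54 ± 0.11) were higher, the inhibitor gene Timp2 lower (-1.83 ± 0.08), and Mmp9 (0.01 ± 0.13, adjusted p = 0.967) and Mmp12 (0.14 ± 0.07, adjusted p = 0.171) did not pass. Of 22 growth and trophic factor genes 7 were higher and 9 lower, with a median of -0.16. Of the list, 17 members lay above the median of the mean signal, where 24.3% of all genes were called higher and 45.3% lower. The endothelin gene Edn1 (4.90 ± 0.09), the activin subunit gene Inhba (4.19 ± 0.11), Csf1 (3.66 ± 0.09) and Vegfa (1.24 ± 0.13) were higher. Vegfa had 8.49 and 8.47 against 7.28 and 7.20 with 8.49 and 8.47 untreated, so there the IL-4/IL-13 pair stood apart. The repair factors Pdgfa (-1.43 ± 0.10), Pdgfb (-1.28 ± 0.10), Igf1 (-1.03 ± 0.07) and Tgfb1 (-0.89 ± 0.07) were lower under IFN-gamma/LPS. Igf1 had 11.52 and 11.58 against 12.67 and 12.48, on opposite sides of the untreated 12.14 and 12.20.

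Genes of macrophage identity were higher in 4 of 14 and lower in 8, with a median of -0.22. All 14 lay above the median of the mean signal, where 24.3% of all genes were called higher and 45.3% lower. The summed linear signal of the list was 51970 and 52300 under IFN-gamma/LPS and 56280 and 56850 under IL-4/IL-13. Markers of other cell types were mostly dim and mostly uncalled, but 7 of 11 fibroblast and stromal markers lay above the median of the mean signal. The T and NK cell list had 0 of 10 called in limma and 0 at an unadjusted p under 0.05, with summed signals of 526 and 540 against 518 and 575, and the erythroid list had 0 of 4 by both counts (1 higher without IL-4/IL-13 array 2), with 211 and 206 against 176 and 202. Neutrophil markers had 1 of 12 higher and 4 lower, with sums of 981 and 973 against 1212 and 1213, and the largest difference was that of the myeloperoxidase gene Mpo (-0.74 ± 0.10). Those counts were unstable. The higher one was Ly6g (0.43 ± 0.14), and the count of higher ones was 0 without IFN-gamma/LPS array 1 or either IL-4/IL-13 array and 2 without IFN-gamma/LPS array 2, and the 4 lower ones fell to 2 without IFN-gamma/LPS array 2 or IL-4/IL-13 array 1. B cell markers had 0 of 8 higher in limma, also at an unadjusted p under 0.05, and 2 lower, Cd79b (-1.06 ± 0.12) and Blnk (-0.85 ± 0.11), with sums of 873 and 955 against 1495 and 1488.

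Some of these lists held single genes with large differences. Dendritic cell markers had 4 of 10 higher, Fscn1 (2.90 ± 0.13), Ccr7 (2.81 ± 0.13), Xcr1 (2.08 ± 0.14) and Clec9a (1.77 ± 0.14), and 1 lower, Kmo (-1.71 ± 0.11), with sums of 1952 and 2128 against 790 and 843. The defining dendritic cell genes Flt3 (-0.22 ± 0.16, adjusted p = 0.338) and Zbtb46 (0.04 ± 0.12, adjusted p = 0.863) did not pass. The endothelial list had 2 of 8 higher (1 without IFN-gamma/LPS array 2 or IL-4/IL-13 array 1) and 1 lower. Its member Kdr, a VEGF receptor gene, had 9.45 and 9.50 against 5.89 and 5.52 (3.77 ± 0.14) with 5.79 and 5.67 untreated, and Pecam1, which leukocytes express too, had 6.56 and 6.58 against 9.27 and 8.98 (-2.56 ± 0.11) with 6.86 and 6.85 untreated. The sums of that list were 1136 and 1153 against 993 and 884. Mast cell and basophil markers had 3 of 10 higher and 0 lower in limma, also at an unadjusted p under 0.05, with the histamine-producing enzyme gene Hdc at 2.44 ± 0.13 and sums of 1040 and 1211 against 482 and 481. The 3 higher ones fell to 1 without IFN-gamma/LPS array 2 or IL-4/IL-13 array 1, when Cpa3 (0.36 ± 0.12) and Gata2 (0.31 ± 0.11) lost their calls. Eosinophil markers had 1 of 5 higher, Ccr3 (1.56 ± 0.13), with sums of 569 and 488 against 300 and 290. Fibroblast and stromal markers had 2 of 11 higher, Dcn (1.35 ± 0.10) and Pdgfrb (0.77 ± 0.14), and 0 lower in limma (1 at an unadjusted p under 0.05, and 1 called without either LPS/IL-4/IL-13 array), with sums of 2864 and 3001 against 2987 and 3025. The arrays came without detection calls, so no marker can be placed at 0, and the part of these markers in the differences of other genes was not tested.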

How the data were processed

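The series holds 8 Affymetrix mouse gene arrays, each with RNA of 1 macrophage sample, and 4 of them were compared here. The deposited values were used as log2 signal. That scale was taken from their range, since the labels name the column a MAS5 signal, and the authors' background correction and normalization were not stated in the sources used here. The table has no detection calls, and 0 of its value columns lay outside the 8 samples. The number of arrays limits the precision.

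Gene names came from the platform annotation. Of 35556 probe sets, 21789 carried 1 symbol, 1621 several and 12146 none. Of those with 1 symbol, 21698 were found by Entrez identifier in the RefSeq gene table of GRCm38.p6, and 0 symbols were updated. Where several probe sets shared a symbol (999 genes), the brightest over the 8 arrays was taken. Listed genes without a probe set of their own symbol were not analysed here.

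limma 3.58.1 in R 4.3.3 was fitted over all 4 groups (lmFit, contrasts.fit and eBayes with a mean-variance trend, 4 residual and a median of 7.55 prior degrees of freedom), and p-values were adjusted by Benjamini-Hochberg over 19938 genes. Named genes were the 20 highest and the 20 lowest differences (called genes, groups apart, without predicted genes and small RNAs), 22 activation markers, and up to 4 called members per direction and up to 2 uncalled members of each list. Further list members were picked after their values were seen. The comparison, its 44 lists (728 genes, 648 measured, 9 lists of other cell types) and the tests were chosen with earlier results of these data known, and lists were described by counts and medians with no test. Promoters came from RefSeq, GRCm38.p6, and motifs were searched on both strands of 300 bases.

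Other settings tried were median centring and quantile normalization, a filter against dim genes, other variance models, a fit of only the 4 arrays, the replicate number as a block, averaging the probe sets of a gene, adjustment over all probe sets, and leaving out each array.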

Additional observations from a re-analysis of the deposited data

Results flagged for a closer look

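Probe sets outside the named genes also differed between the treatments. Of 12146 probe sets with no gene symbol in the platform annotation, 2936 were called in limma (24.2%), 1383 higher under IFN-gamma/LPS and 1553 lower, and 25 differed at least 8-fold. Of 1621 probe sets with several symbols, 497 were called (30.7%), 160 higher and 337 lower, and 8 differed at least 8-fold. Both shares were below that of the named genes, of which 7531 of 19938 were called in the same fit over all probe sets. The 41.6% given above came from a fit of the named genes alone. The probe sets were singled out because they carry signal that the comparison of named genes does not use, and no gene is named from them.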

How the results depend on the processing

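The comparison changed little with the processing. The 8302 called genes numbered from 7531 to 8428 over the alternatives that kept all 8 arrays or the 4 compared, and from 7084 to 8629 when an array was left out, the lowest without IL-4/IL-13 array 1. Among called genes the share that was higher was 37.3%, 41.8% after quantile normalization and 39.8% after median centring. With the replicate number as a block (replicate block), 8307 genes were called, 3107 higher and 5200 lower, against 3097 and 5205. The differences between array 1 and array 2 correlated across genes at r = 0.129 for the treatments compared and between -0.358 and 0.217 for other pairs of groups. Such correlations cannot show whether arrays of the same number shared a culture or mouse, since noise between arrays also enters them. Of 12432 combinations of a named or listed gene with a setting, 12164 stayed called in the same direction or stayed uncalled. Of the rest, 212 lost the call, 55 gained it and 1 reversed, over 81 genes in all. A change of sign in a gene uncalled in both fits was not counted as a reversal. The reversal was Hk1, with 0.32 (adjusted p = 0.00239) in the mean over its probe sets, and 11 of 999 genes with several probe sets had called probe sets in opposite directions. Of 1496 list counts under other settings, 1473 stayed within 1.5 times. The other 23 concerned 11 counts, all of 5 members or fewer: higher and lower neutrophil, higher mast cell, endothelial, eosinophil and erythroid and lower fibroblast markers, lower CXC chemokine and Fc receptor genes, and higher lysosomal and respiratory chain genes. The eosinophil count rose from 1 to 2 after median centring or without the mean-variance trend, the respiratory chain count from 1 to 2 after quantile normalization, and the lysosomal count fell to 1 without the trend. With all probe sets tested together the mast cell count fell to 1 and the higher neutrophil count to 0, which it also was with dim probe sets left out.

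With 2 arrays per group, small differences can be missed, and a gene that did not pass is not shown to be equal under both treatments. Levels cannot be compared between probe sets, and values near the dim end have no detection call. Only 15614 of 19938 genes had a promoter window.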
